A study of Mus musculus with 8 samples.

Results

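The 10 genes described here encode matrix metalloproteinases (Mmp2, Mmp3, Mmp9, Mmp10, Mmp13 and Mmp14), the aggrecanase Adamts5, and the tissue inhibitors of metalloproteinases Timp1, Timp2 and Timp3. They were taken by gene symbol from the array annotation, which names 19505 distinct symbols on 22206 transcript clusters, and all 10 were found, each on 1 transcript cluster. Matrix metalloproteinases are secreted or membrane-bound enzymes with a zinc ion in the active site. They are made as inactive proenzymes and cut collagens, proteoglycans and other matrix proteins once the propeptide is removed. Timps bind the active enzymes and block them, so the matrix around a fibroblast is remodelled according to the balance of both. In fibroblasts several of these genes, Mmp3 and Mmp13 among them, are known as targets of inflammatory signals acting through AP-1 and NF-kB.

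The cells were fibroblasts from the tail tips (TTFs) of postnatal mice. They had received GHMT, a mixture of retroviruses that carry Gata4, Hand2, Mef2c and Tbx5 and can turn fibroblasts into cardiomyocyte-like cells. Their RNA was hybridised to Clariom S Mouse arrays, 1 sample per array. All 8 samples carried the GHMT viruses, and untransduced fibroblasts were not analysed here. TTF set 1 held GHMT with vehicle, diclofenac (a cyclooxygenase inhibitor, which blocks prostaglandin synthesis), an EP4 antagonist (against a receptor of prostaglandin E2, PGE2), and diclofenac plus PGE2. TTF set 2 held GHMT with vehicle, the EP4 antagonist, a TGFb inhibitor and a Wnt inhibitor. GHMT and the EP4 antagonist thus had 2 arrays each, 1 per set, and each other treatment had 1 array. The vehicle named in the growth protocol is DMSO. Agents were added together with the viruses, and no doses, harvest time or number of animals behind a set could be taken from the labels.

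Values are log2 expression values. For each array a background level was set so that 95% of its 23 background probe sets lay below it (their 95th percentile, 5.73 to 5.99), and "at background" means at or below that level. Arrays of 1 set correlated at 0.986 to 0.995 and arrays of different sets at 0.974 to 0.984, so single arrays were compared inside 1 set only, except where the sets themselves are compared. Of the fibroblast markers, 8 of 8 measured were above background in every array, among them Vim (18.50 to 18.85) and Dcn (14.28 to 17.35). Of 10 macrophage and neutrophil markers, 9 lay at background in all 8 arrays, the exception being Lyz2, above background with the Wnt inhibitor alone (6.47). All 7 keratinocyte and epithelial markers and all 5 endothelial markers lay at background throughout. Of 8 cartilage and bone markers, Sp7, Bglap, Ibsp and Col2a1 lay at background in all arrays, while Alpl, Sox9 and Col10a1 were above it in all.

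Mmp3, stromelysin-1, an enzyme that cuts proteoglycans and fibronectin and activates other proenzymes, was the member that differed most between the arms of the PGE2-EP4 comparison. It stood at 10.78 with GHMT, 8.96 with diclofenac, 8.76 with the EP4 antagonist and 10.49 with diclofenac plus PGE2 in set 1. In set 2 it stood at 12.20 with GHMT, 10.85 with the EP4 antagonist, 10.08 with the TGFb inhibitor and 14.11 with the Wnt inhibitor. Within set 1 both arrays with the prostaglandin route inhibited were lower than both with it active. In set 2, with 1 array per arm, the EP4 antagonist array was lower than GHMT. The TGFb inhibitor array, which belongs to neither arm, was lower still. Across the sets the arms did overlap, since the EP4 antagonist array of set 2 lay above both set 1 arrays with the route active.

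Mmp3 lies in a cluster of metalloproteinase genes on chromosome 9, in the order Mmp13, Mmp12, Mmp1b, Mmp3, Mmp1a, Mmp10, Mmp8, Mmp27, Mmp20 and Mmp7 in the RefSeq annotation of GRCm38.p6. Mmp10, stromelysin-2, is a close relative of Mmp3, and Mmp13, collagenase-3, cuts fibrillar collagens. RefSeq promoter sequences of 300 bases (250 before and 50 after the annotated start, GRCm38.p6) were found for 7 of the 10 members, namely Mmp3, Mmp10, Mmp13, Mmp14, Timp1, Timp2 and Timp3. Those of the 3 members of this cluster are shown because they share the AP-1 sequence TGAGTCA, which binds Fos and Jun dimers, and because each differed by 2-fold or more between treatments of set 2. Each is on the plus strand and written 5′ to 3′, with the AP-1 sequence (TGAGTCA, or TGACTCA where it lies on the other strand) in capitals. Their positions are chr9:7445572-7445871 for Mmp3, chr9:7272264-7272563 for Mmp13 and chr9:7502092-7502391 for Mmp10.
Mmp3: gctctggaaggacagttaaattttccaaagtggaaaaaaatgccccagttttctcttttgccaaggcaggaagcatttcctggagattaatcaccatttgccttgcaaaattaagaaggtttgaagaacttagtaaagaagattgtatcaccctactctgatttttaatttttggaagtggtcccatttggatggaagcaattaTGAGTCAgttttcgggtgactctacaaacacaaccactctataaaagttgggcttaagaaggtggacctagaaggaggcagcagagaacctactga
Mmp13: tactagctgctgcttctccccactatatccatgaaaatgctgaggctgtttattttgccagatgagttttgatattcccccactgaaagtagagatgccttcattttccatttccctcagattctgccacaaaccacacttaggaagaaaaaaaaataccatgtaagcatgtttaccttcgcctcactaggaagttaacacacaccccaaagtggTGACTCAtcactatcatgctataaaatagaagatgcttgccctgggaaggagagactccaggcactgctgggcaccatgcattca
Mmp10: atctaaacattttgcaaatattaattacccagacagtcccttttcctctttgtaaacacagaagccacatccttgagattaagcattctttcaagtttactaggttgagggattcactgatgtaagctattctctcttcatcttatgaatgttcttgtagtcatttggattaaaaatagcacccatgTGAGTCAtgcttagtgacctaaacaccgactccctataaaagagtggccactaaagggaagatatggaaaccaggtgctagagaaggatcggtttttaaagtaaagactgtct
The AP-1 sequence was searched on both strands. Counted from the annotated start, it began at -46 in Mmp3, at -35 in Mmp13 (on the other strand) and at -63 in Mmp10. The TATA box sequence TATAAA followed at -7, -16 and -29, respectively, without overlap. The AP-1 sequence was present in 3 of the 7 members' promoters, those printed, and in 5.2% of the 32851 promoters of this length. TATAAA or its reverse complement was in 13.6% of the 32851. The sequence CTTTGAT (or ATCAAAG), to which TCF and LEF factors of the Wnt pathway bind, was in none of the 7 and in 3.73% of all promoters. A match describes the letters in this window and is not evidence of binding.

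**Figure D1:**
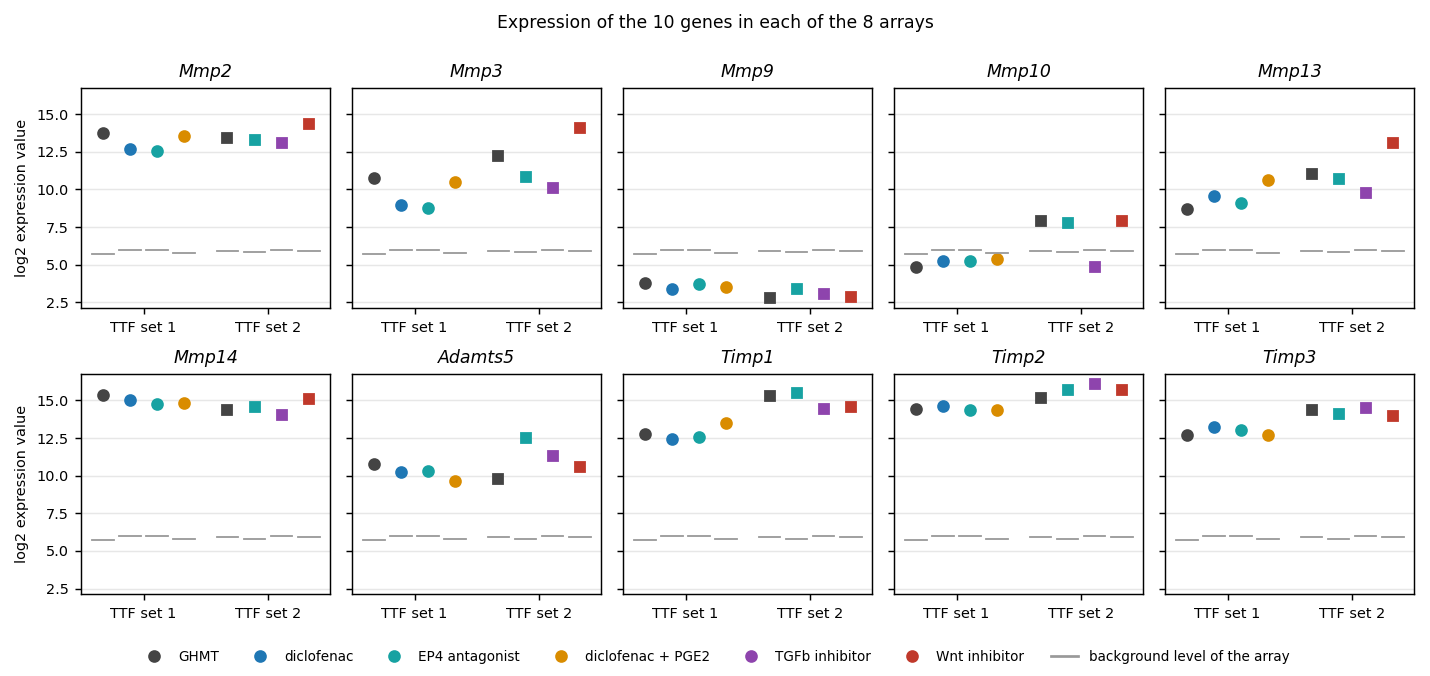
Log2 expression value (y axis) of each of the 10 genes in the 8 arrays, circles for TTF set 1 and squares for TTF set 2, coloured by treatment, with the background level of each array as a grey line. Mmp3 is lowest in set 1 with diclofenac (8.96) and the EP4 antagonist (8.76) and highest with the Wnt inhibitor in set 2 (14.11), and Mmp9 lies at background in every array.

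The comparison of 3 arrays with PGE2-EP4 signalling inhibited (both EP4 antagonist arrays and diclofenac) against 3 with it active (both GHMT arrays and the array with PGE2 added to diclofenac) addressed whether the cyclooxygenase-2, PGE2 and EP4 route alters reprogramming cells. The arms pool treatments that are not replicates of 1 group. When the fit held the TTF set as a block, which was the alternative fit, Mmp3 fell by 1.63 ± 0.17 log2 units (± SE, limma adjusted p = 0.00982 over all transcript clusters), from a mean of 11.16 to 9.52. It was the 1 member of 10 that passed, with 0.378% of all transcript clusters passing in either direction and 0.122% passing as lower. In the main fit without the block none of the 10 passed (Mmp3 at -1.63 ± 0.61, adjusted p = 1), and neither did any of the 22206 clusters (0%, with 469 at an unadjusted p under 0.05). At an unadjusted p under 0.05 by limma were 2 members, Mmp2 and Mmp3, without and with the block. Of all 22206 clusters, 1925 were under it with the block, against 469 without. The Mmp3 call with the block was kept without GHMT replicate 1 (adjusted p = 0.00609) and without diclofenac plus PGE2 (0.0379). It was lost without diclofenac (0.0735), without EP4 antagonist replicate 1 (0.0991) and without either array of set 2, which leaves set 1 alone (0.0946), while the difference stayed between -1.51 and -1.78 in these fits.

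Other members did not pass in that comparison with the block. Mmp2, gelatinase A, which degrades basement membrane collagen, was at -0.75 ± 0.20 (adjusted p = 0.22). Its values were 13.76 with GHMT, 12.68 with diclofenac, 12.57 with the EP4 antagonist and 13.56 with diclofenac plus PGE2 in set 1, where the arms did not overlap. In set 2 they were 13.43 with GHMT, 13.25 with the EP4 antagonist, 13.08 with the TGFb inhibitor and 14.37 with the Wnt inhibitor, and only the last stood apart. Adamts5 was at 0.94 ± 0.47 (adjusted p = 0.636), with the widest error of the members. The remaining differences were -0.35 ± 0.40 for Mmp13, -0.35 ± 0.24 for Timp1, 0.28 ± 0.17 for Timp2, 0.23 ± 0.18 for Timp3 and -0.05 ± 0.19 for Mmp14, and their adjusted p lay between 0.728 for Timp2 and 0.971 for Mmp14. The median over the 10 members was 0.00 and that over all clusters -0.01.

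**Figure D2:**
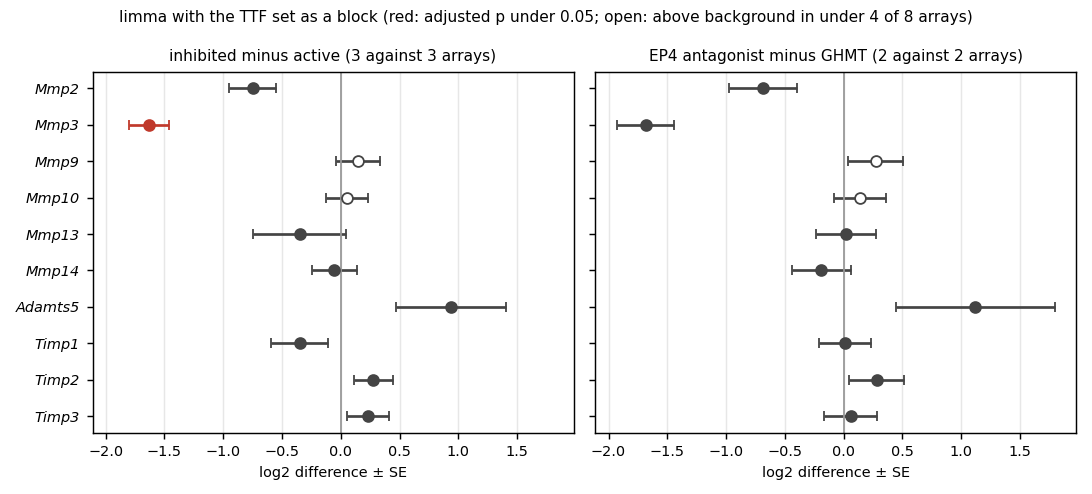
Log2 difference with its standard error (x axis) of each gene by limma with the TTF set as a block, on the left for signalling inhibited minus active (3 against 3 arrays) and on the right for the EP4 antagonist minus GHMT (2 against 2). Mmp3 lies at -1.63 (red, adjusted p under 0.05) and -1.69 (dark, not past the threshold), Adamts5 has the widest error bars, and open points are genes above background in under 4 arrays.

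The EP4 antagonist was also set against GHMT alone (n = 2 each), with 4 of the same arrays. Mmp3 was lower by 1.69 ± 0.24 with the set as a block (adjusted p = 0.531 by limma), at -2.02 in set 1 and -1.35 in set 2. None of the 10 members and none of all clusters (0%) passed without or with the block. Unadjusted p under 0.05 by limma held for 0 members without the block, where 144 of all 22206 clusters were under it. With the block it held for 1 member, Mmp3, and for 1243 of all 22206 clusters. After quantile normalization with the block, Mmp3 passed (adjusted p = 0.0256), with 0.14% of all clusters called. Leaving out 1 array at a time, without the block, sets 1 array of an arm against 2 of the other, so that treatment and TTF set cannot be told apart and the spread comes from the arm with 2 arrays alone. Mmp3 was then at -0.64 without EP4 antagonist replicate 1 (adjusted p = 0.998), -0.97 without GHMT replicate 2 (0.998), -2.39 when GHMT replicate 1 was left out (0.242) and -2.73 when EP4 antagonist replicate 2 was (0.0231, with 0.0721% of all clusters called). These values give no further support to a difference in Mmp3. Mmp2 was at -0.69 ± 0.29 (-1.19 in set 1 and -0.18 in set 2).

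Fibroblast and cardiomyocyte markers differed in the same comparison. Of the 8 fibroblast markers 6 were lower in the inhibited arm (median -0.62, none passing with the block), and the log2 of their summed level was 19.31 to 19.46 in the inhibited arrays and 19.25 to 19.84 in the active ones. All 6 cardiomyocyte markers were higher (median 1.58), and Myh6, Actc1 and Myl7 rose with the block, by 2.99, 2.36 and 2.17, and did not pass without it. Their summed level was 18.29 to 18.34 in the inhibited and 17.62 to 18.06 in the active arrays. Fewer fibroblasts and less Mmp3 RNA per fibroblast cannot be told apart in these bulk samples, and the part of this shift in the Mmp3 result was not tested. In set 2 cardiomyocyte markers were higher than with GHMT both with the TGFb inhibitor (median 1.69), where Mmp3 was 2.12 lower, and with the Wnt inhibitor (median 2.33), where Mmp3 was 1.91 higher.

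Single arrays within a set were compared without a test. As a measure of spread, the standard deviation of a difference between 2 arrays was taken from the EP4 antagonist fit with the block, which has 1 residual degree of freedom and borrows from all genes. It was 0.34 for Mmp3, between 0.31 and 0.40 for the other members except Adamts5, and 0.95 for Adamts5. The 1 residual degree of freedom is the disagreement of the EP4 antagonist difference between the sets. For Adamts5 that difference was -0.45 in set 1 and 2.69 in set 2. The spread is therefore no independent measure of the EP4 antagonist differences. In set 1, diclofenac was lower than GHMT by 2-fold or more in 2 members, Mmp3 (3.53-fold) and Mmp2 (2.11-fold), against 0.473% of all clusters. The EP4 antagonist was lower in the same 2, Mmp3 by 4.06-fold and Mmp2 by 2.28-fold, against 0.585% of all clusters, and both comparisons share the GHMT array. Between diclofenac and the EP4 antagonist no member was 2-fold apart (0.324% of clusters were), and Mmp3 was at -0.20 and Mmp2 at -0.11, within the spread.

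Adding PGE2 to diclofenac was accompanied by higher values in 3 members, Mmp3 (1.53, 2.89-fold), Mmp13 (1.09, 2.13-fold) and Timp1 (1.07, 2.10-fold), where 0.721% of all clusters were at least 2-fold higher. No member was 2-fold lower, against 1.11% of all clusters. After quantile normalization Timp1 was at 0.99, just under 2-fold. Mmp3 and Mmp2 with diclofenac plus PGE2 lay within the spread of GHMT, at -0.29 and -0.20. Against GHMT, diclofenac plus PGE2 was 2-fold apart in 2 members, with Mmp13 3.86-fold higher and Adamts5 2.13-fold lower, where 1.44% of all clusters were 2-fold apart in either direction.

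Mmp13, collagenase-3, followed another order than Mmp3 in set 1. It was 8.67 with GHMT, 9.53 with diclofenac, 9.08 with the EP4 antagonist and 10.62 with diclofenac plus PGE2, so GHMT was the lowest of the 4. Diclofenac plus PGE2 stood 1.09 above the next array, well beyond the spread of 0.36. The gaps between the other neighbours, 0.45 and 0.41, exceeded it only narrowly, so the order of those arrays is uncertain. In set 2 it was 11.05 with GHMT, 10.68 with the EP4 antagonist, 9.79 with the TGFb inhibitor and 13.10 with the Wnt inhibitor. The order of the set 2 treatments was the same for Mmp13 and Mmp3, highest with the Wnt inhibitor and lowest with the TGFb inhibitor.

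The Wnt inhibitor array was higher than GHMT of set 2 by 2-fold or more in 2 members, Mmp13 (2.05, 4.14-fold) and Mmp3 (1.91, 3.76-fold), against 1.97% of all clusters. Mmp2 (0.94) and Mmp14 (0.73), which activates the Mmp2 proenzyme at the cell surface, were higher by more than their spread of 0.40 and 0.36 but under 2-fold. The TGFb inhibitor array was 2-fold lower in 3 members, against 2.03% of all clusters, and 2-fold higher in 1, against 2.3%. Mmp3 was 4.35-fold lower and Mmp13 2.39-fold lower, and Adamts5 was 2.83-fold higher. Mmp10 was 7.90 with GHMT, 7.78 with the EP4 antagonist, 7.88 with the Wnt inhibitor and 4.83, at background, with the TGFb inhibitor. It was thus at least 3.83-fold lower with the TGFb inhibitor than with GHMT, and the other 3 arrays differed by less than the spread of 0.32. In set 1 Mmp10 lay at background in all 4 arrays (4.84 to 5.37).

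Set directly against each other, which shares no control array, the Wnt and TGFb inhibitor arrays differed by 2-fold or more in 5 of the 10 members, each higher with the Wnt inhibitor, against 1.69% of all clusters higher. Mmp3 differed by 4.03 (16.3-fold), Mmp13 by 3.31 (9.92-fold), Mmp2 by 1.29 (2.45-fold) and Mmp14 by 1.04 (2.06-fold), and Mmp10 was at least 3.78-fold higher. The inhibitors Timp1 (0.15), Timp2 (-0.41) and Timp3 (-0.52) differed by less than 2-fold. Both are single arrays of 1 TTF set, so the differences have no replicate check.

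**Figure D3:**
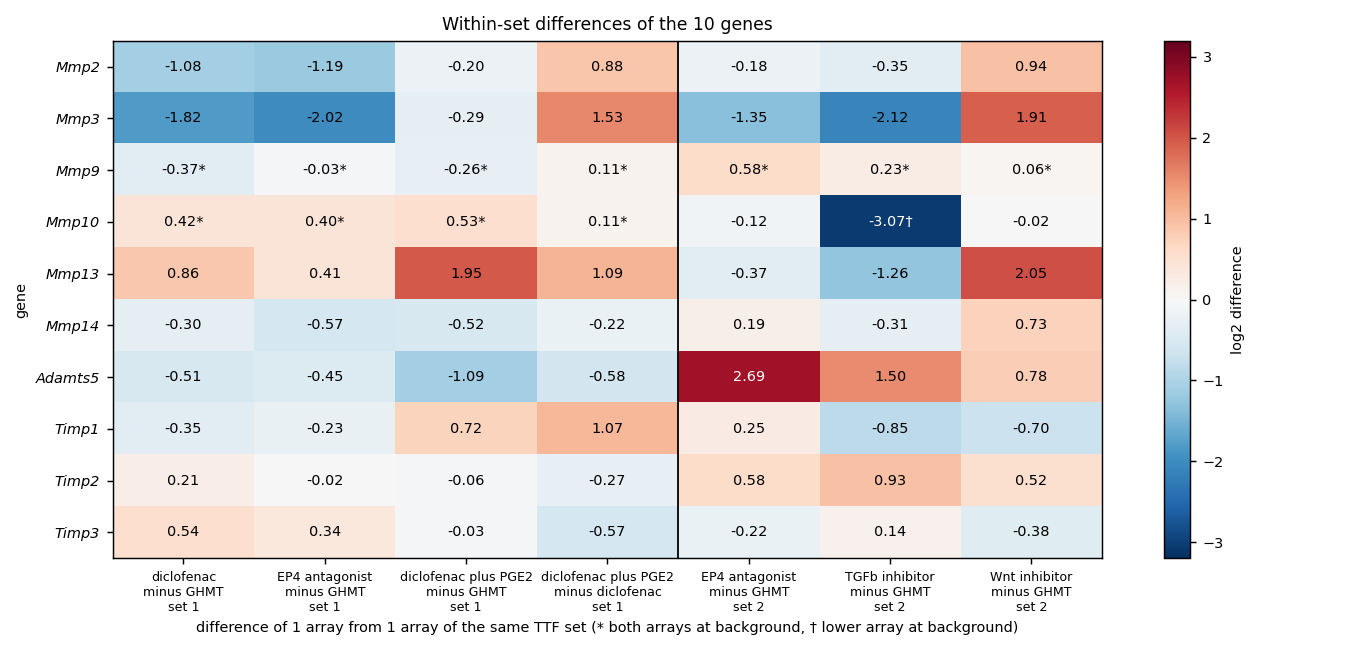
Log2 differences of 1 array from 1 array of the same TTF set (columns) for the 10 genes (rows), blue for lower and red for higher, with the value in each cell. Mmp3 was -1.82 with diclofenac, -2.02 and -1.35 with the EP4 antagonist, -2.12 with the TGFb inhibitor and 1.91 with the Wnt inhibitor relative to GHMT, while the Timp genes stayed between -0.85 and 0.93 relative to GHMT.

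Around these genes the cluster on chromosome 9 was mostly at background. Mmp1a, Mmp1b, Mmp7, Mmp8 and Mmp20 lay at background in all 8 arrays. Mmp12, macrophage elastase, was above background in 2 arrays, with the EP4 antagonist (6.75) and the Wnt inhibitor (6.64) of set 2, against 4.83 with GHMT of that set. Macrophage markers were at background in the first of these arrays, and in the second Lyz2 was above it. Mmp27 was not analysed here.

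**Figure D4:**
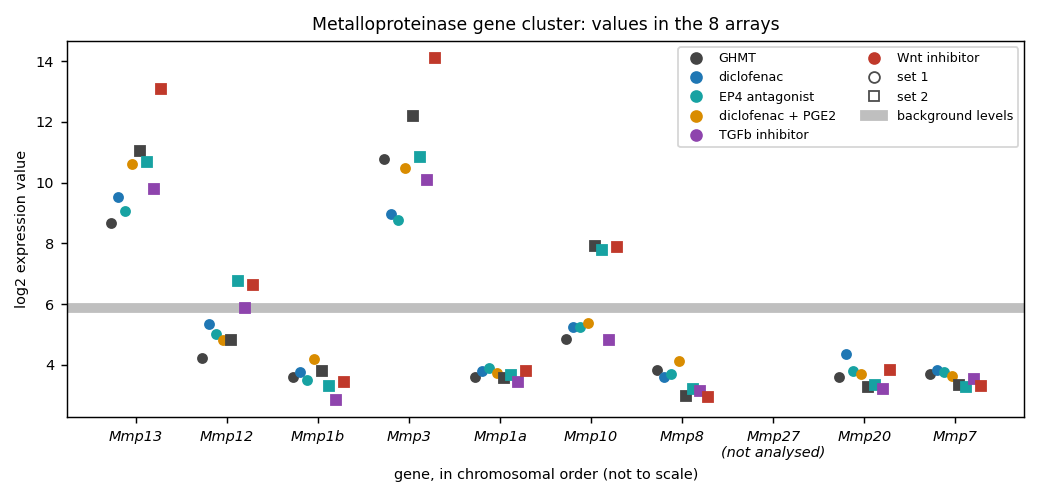
Log2 expression value (y axis) of the genes of the metalloproteinase cluster in chromosomal order (x axis, not to scale), circles for TTF set 1 and squares for TTF set 2, coloured by treatment, with the range of background levels in grey. Mmp13 and Mmp3 are above background in all 8 arrays and Mmp10 in 3 arrays of set 2, and 5 of their neighbours are at background throughout.

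Mmp9, gelatinase B, a product of leukocytes and activated epithelium as well as fibroblasts, lay at background in all 8 arrays (2.79 to 3.75), and no fold is given. Mmp14, the membrane-type metalloproteinase, was 15.36 with GHMT, 15.06 with diclofenac, 14.79 with the EP4 antagonist and 14.84 with diclofenac plus PGE2 in set 1. In set 2 it was 14.37 with GHMT, 14.56 with the EP4 antagonist, 14.06 with the TGFb inhibitor and 15.10 with the Wnt inhibitor. No neighbours in the set 1 order were further apart than the spread of 0.36, and in set 2 only the Wnt inhibitor array stood apart from the next. Beyond neighbours, the EP4 antagonist (-0.57) and diclofenac plus PGE2 (-0.52) were lower than GHMT of set 1 by more than that spread. In set 2 the TGFb inhibitor was lower than the EP4 antagonist by more than it (-0.50).

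Adamts5, an aggrecanase that cuts aggrecan and versican, was ordered differently in the sets. It was 10.76 with GHMT, 10.25 with diclofenac, 10.31 with the EP4 antagonist and 9.67 with diclofenac plus PGE2 in set 1, all neighbours in the order lying within the spread of 0.95. Diclofenac plus PGE2 was at -1.09 against GHMT, beyond that spread. In set 2 Adamts5 was 9.78 with GHMT, 12.47 with the EP4 antagonist, 11.28 with the TGFb inhibitor and 10.56 with the Wnt inhibitor. GHMT was the highest array of set 1 and the lowest of set 2. The EP4 antagonist was 6.45-fold higher than GHMT in set 2, 1 of 2 members that were 2-fold apart there (with Mmp3, 2.55-fold lower), against 1.9% of all clusters in either direction. The difference between the sets has no test, as each contrast has 1 array per arm.

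The 3 Timp genes were higher in every array of set 2 than in any array of set 1. The share of all clusters that separate the sets in this way was not counted. Between the GHMT arrays 6.09% of all clusters were at least 2-fold higher in set 2, so a difference between the sets is not particular to these genes. Timp1, which blocks most secreted metalloproteinases, was 12.80 with GHMT, 12.45 with diclofenac, 12.57 with the EP4 antagonist and 13.52 with diclofenac plus PGE2 in set 1, where the last stood above the other 3. In set 2 it was 15.27 with GHMT, 15.52 with the EP4 antagonist, 14.42 with the TGFb inhibitor and 14.57 with the Wnt inhibitor, and both GHMT and the EP4 antagonist lay above the other 2. Timp2, which also takes part in activating the Mmp2 proenzyme, was 14.41 with GHMT, 14.62 with diclofenac, 14.39 with the EP4 antagonist and 14.35 with diclofenac plus PGE2 in set 1, all within the spread. In set 2 it was 15.14 with GHMT, 15.72 with the EP4 antagonist, 16.07 with the TGFb inhibitor and 15.66 with the Wnt inhibitor, so GHMT was lowest there by more than the spread of 0.33. Timp3, a matrix-bound inhibitor that also acts on Adamts5, was 12.71 with GHMT, 13.25 with diclofenac, 13.05 with the EP4 antagonist and 12.68 with diclofenac plus PGE2 in set 1, where the arrays with the prostaglandin route inhibited were the higher ones. It was 14.34 with GHMT, 14.12 with the EP4 antagonist, 14.48 with the TGFb inhibitor and 13.96 with the Wnt inhibitor in set 2, with neighbours in the order within the spread of 0.32. The TGFb inhibitor was at 0.36 against the EP4 antagonist. The Wnt inhibitor was at -0.52 against the TGFb inhibitor and at -0.38 against GHMT. Each of these differences exceeded that spread.

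Between the GHMT arrays of the sets, 5 members were at least 2-fold higher in set 2 (6.09% of all clusters were) and none was 2-fold lower (2.58% of all clusters were). Timp1 was 5.54-fold, Mmp13 5.21-fold, Timp3 3.10-fold, Mmp3 2.68-fold and Mmp10 at least 4.50-fold higher. The median difference over all clusters was -0.16. With the arrays centred on their medians Mmp3 was at 1.56 and after quantile normalization at 1.06, so its direction held while its size varied. Mmp14 (-0.99) and Adamts5 (-0.98) lay just short of 2-fold lower, and after quantile normalization they passed it, at -1.20 and -1.31. Between the EP4 antagonist arrays 7 members were at least 2-fold higher in set 2, against 5.78% of all clusters. They were Mmp3 (4.26-fold), Mmp10, Mmp13 (3.03-fold), Adamts5 (4.47-fold), Timp1 (7.73-fold), Timp2 (2.51-fold) and Timp3 (2.10-fold). After quantile normalization Timp3 was at 0.65, under 2-fold.

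Genes that induce, activate or block these enzymes, and their substrates, were followed by lists. Upstream signals and transcription factors (17 measured, 13 of them above background in every array) had a median of -0.10 in the inhibited against the active arm. With the block 1 fell and 0 rose, where 0.122% of all clusters passed as lower. The 1 was Il1r1, the interleukin-1 receptor that induces metalloproteinase genes, at -1.49 ± 0.21 (limma adjusted p = 0.022). Il1r1 was 1.16 lower than GHMT with the EP4 antagonist in set 1 and 1.26 lower in set 2, and 2.04 higher with diclofenac plus PGE2 than with diclofenac. Il6, an inflammatory cytokine, was at -0.87 ± 0.36 (adjusted p = 0.538) and Ets1, a transcription factor of metalloproteinase promoters, at 0.45 ± 0.21 (0.598). Il1a, Il1b and Tnf lay at background in all 8 arrays. The Fos and Jun genes above background (Fos, Fosl1, Fosl2, Jun, Junb and Jund) lay between -0.26 for Fos and 0.03 for Junb.

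Substrates were described in the same way. Of 9 aggrecan-family and glycoprotein genes (median -0.13), 1 fell with the block and 0 rose, where 0.122% of all clusters passed as lower. The 1 was Vcan, the versican that Adamts5 cuts, which fell by 1.49 ± 0.18 (limma adjusted p = 0.0184). Both calls were absent without the block (adjusted p = 1), and with it they were kept without GHMT replicate 1 (0.00617 for Il1r1 and 0.00323 for Vcan). They were lost without diclofenac (0.169 and 0.113), EP4 antagonist replicate 1 (0.174 and 0.104), diclofenac plus PGE2 (0.0552 and 0.0637) or either array of set 2 (0.155 for both). Tnc, tenascin-C, was at -0.52 and Fn1, fibronectin, at -0.33. None of the 10 collagen and cross-linking genes passed (median -0.06), with Col3a1 at -0.91 (adjusted p = 0.0619), Col1a2 at -0.47 and Col1a1 at -0.45. With the TGFb inhibitor 6 of these 10 were 2-fold lower than GHMT (median -1.34), against 2.03% of all clusters. Among the 6 were Col1a2 at -2.81 and Col1a1 at -1.48, in the array where Mmp3, Mmp10 and Mmp13 were lower too. With the Wnt inhibitor none of the 10 was 2-fold apart from GHMT (median -0.03). Of all 22206 clusters, 437 were 2-fold higher and 248 2-fold lower there.

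The other protease lists had no member past the threshold with the block in the PGE2-EP4 comparison. Of 15 other matrix metalloproteinases, 10 lay at background in all 8 arrays, and Mmp12 was at 1.07 (mean 5.70 against 4.63, both under the background levels), Mmp19 at -0.62 and Mmp11 at 0.41. Of 17 other ADAMTS proteases 5 lay at background throughout, with Adamts1 at 0.87 ± 0.27 (adjusted p = 0.318) Adamts15 at -1.21 (0.0944) and Adamts3 at -1.03 (0.147), the last above background in 1 array and Adamts15 in 2. Of 8 ADAM sheddases, Adam12 was at -0.75 ± 0.16 (adjusted p = 0.107) and, with the TGFb inhibitor, 3.17 lower than GHMT. Adam9 was at -0.58 and Adam15 at 0.38. Of 3 other inhibitors only Reck, a membrane-anchored one, was above background, at -0.40 ± 0.15 (adjusted p = 0.454). Among 6 genes of plasminogen activation, whose product plasmin activates metalloproteinase proenzymes, the activators Plat and Plau were at -0.73 and -0.66, and Serpinb2 at 0.68. Among 8 activators and clearance receptors, Pcsk5 was at -0.67, the cathepsins Ctsl at -0.44 and Ctsk at 0.19, and with the Wnt inhibitor Ctsk was 1.81 higher than GHMT.

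Transcripts with the pattern nearest to a member were found by the root mean square distance of set-centred log2 values over the 8 arrays, among 10043 symbols, for the 3 members with the widest range among those above background in at least 4 arrays, which leaves out Mmp10. Nearest to Mmp3 were Sox9, a cartilage transcription factor (0.519 log2 units), Comp, a cartilage matrix protein (0.579), and Cilp (0.601). Sox9 was 0.86 and 1.80 lower than GHMT with the EP4 antagonist in sets 1 and 2, 1.46 lower with the TGFb inhibitor and 1.18 higher with the Wnt inhibitor. For diclofenac plus PGE2 minus diclofenac, Sox9 was at 0.66, Comp at 0.14 and Cilp at -0.07, where Mmp3 was at 1.53. Of the 8 cartilage and bone markers, 7 were lower in the inhibited than in the active arm, as were 52.1% of all clusters. Among these 7, Sp7, Bglap, Ibsp and Col2a1 lay at background throughout and give no direction. Sox9 was at -1.11, Alpl at -0.79 and Comp, above background in 3 arrays, at -0.63, none passing with the block. The remaining marker, Col10a1, was higher by 2.85 ± 0.34 with the block (limma adjusted p = 0.0174) and did not pass without it. Nearest to Mmp13 were Hpgd, the enzyme that degrades PGE2 (0.465), Vsir (0.544) and Ltbp2, a binding protein of the TGFb matrix (0.546). Hpgd was 1.29 higher with diclofenac plus PGE2 than with diclofenac and 2.30 higher with the Wnt inhibitor than with GHMT. For diclofenac plus PGE2 minus diclofenac, Vsir was at 0.22 and Ltbp2 at 0.02, where Mmp13 was at 1.09. With the EP4 antagonist in set 2, Hpgd was at 1.25 against GHMT, where Mmp13 was at -0.37. Nearest to Adamts5 were Kcnip4 (0.401), the chloride channel Ano1 (0.410) and Ccbe1 (0.445). Ano1 was 2.22 higher with the EP4 antagonist than with GHMT in set 2 and 0.92 higher in set 1, where Adamts5 was 0.45 lower. Of these 9 genes, Sox9, Cilp, Ltbp2, Ano1 and Ccbe1 were above background in all 8 arrays, Hpgd in 5, Comp in 3, Kcnip4 in 2 and Vsir in 1.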

How the data were processed

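The authors deposited log2 expression values of 8 Clariom S Mouse arrays, normalized, per the labels and the series' design text, by SST-RMA (a single space transformation followed by robust multichip analysis) with Expression Console 1.4. The labels do not state whether both TTF sets were normalized together, and for the genome build of the array annotation and for filters nothing is given in the sources used here. Of 28846 rows, 6640 were control probe sets and left out of tests, and 19572 of 22206 transcript clusters have 1 gene symbol, none has several, and 2634 are unnamed here. Where a symbol had several clusters (55 symbols), the one with the highest mean was used.

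Groups and TTF set numbers came from the sample titles. Fits used lmFit and eBayes of limma 3.58.1 under R 4.3.3, with two-sided tests on all transcript clusters, at a Benjamini-Hochberg adjusted p under 0.05, without a block (main) and with a block for the TTF set. In the titles the number belongs to the fibroblasts. Deviations from the group means, taken for GHMT and for the EP4 antagonist, correlated across clusters within a set (r = 0.724). The number was therefore treated as pairing the arrays in the fits with the block, while the main fits ignore this pairing. Nothing in the labels says that replicates are independent cultures or animals, and the p-values measure no more than the spread among these arrays, whose small number limits the precision. Single-array differences were counted at 2-fold or more where the higher array was above background. Where the lower array was at background, the fold is a lower bound against that level. The script was tested on simulated data.

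The members, the 15 lists (148 entries, 137 matched), the tests and the background rule were chosen with earlier results of these data known. Named genes besides the members were up to 3 per list with the largest difference above background, and the 3 nearest patterns of 3 members. Alternatives were quantile normalization, another prior, a filter on low values, median centring, no background rule, and leaving out each array.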

Additional observations from a re-analysis of the deposited data

Results flagged for a closer look

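Among the 8 members above background in all arrays of this comparison, 6 had EP4 antagonist minus GHMT differences of opposite sign in the TTF sets. Mmp9 and Mmp10 were left out here because they were at background in set 1, where their signs give no direction. Adamts5 was lower in set 1 (-0.45) and higher in set 2 (2.69). Mmp13 was at 0.41 in set 1 and -0.37 in set 2, and Mmp14 at -0.57 and 0.19. Among the inhibitors, Timp1 was at -0.23 and 0.25, Timp2 at -0.02 and 0.58, and Timp3 at 0.34 and -0.22. The difference between the sets was not tested for any of them, as each contrast has 1 array per arm, and of these 6 only Adamts5 had a difference of 2-fold or more in a set. Each of them except Mmp13 had a difference within its spread in at least 1 set, and Mmp13 exceeded its spread of 0.36 narrowly. That spread rests in part on the disagreement of these same differences between the sets, so it cannot judge them. How often all clusters had opposite signs in the sets was not counted, so the 6 cannot be set against a share.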

How the results depend on the processing

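Mmp3 and Mmp2 were lower and Adamts5 higher in both comparisons under every alternative tried, but their sizes varied with the array left out. For the EP4 antagonist they ranged from -2.73 to -0.64 for Mmp3, -1.02 to -0.34 for Mmp2 and 0.04 to 2.2 for Adamts5. For PGE2-EP4 the ranges were -2.30 to -1.11, -1.03 to -0.61 and 0.065 to 1.5. With the replicate block 1 member, Mmp3, passed in the PGE2-EP4 comparison, also with quantile normalization, with a trend and robust prior, and with a filter on low values added after the data were seen. The counts over all clusters, 0 without the block, were 84, 78, 143 and 110 in these fits. For the EP4 antagonist against GHMT the replicate block alone gave 0, with quantile normalization 1 member and 31 clusters, with the other prior 8 clusters and with the filter 1. Leaving out 1 array at a time, members past the threshold ranged from 0 to 1 in both comparisons, and clusters from 1 to 25 for the EP4 antagonist and from 0 to 192 for PGE2-EP4, with fewer degrees of freedom and, without the block, arms from different sets. In these fits several small differences changed sign. For the EP4 antagonist the ranges were -0.20 to 0.76 for Mmp9, -1.39 to 1.67 for Mmp10, -1.17 to 1.21 for Mmp13, -0.69 to 0.31 for Mmp14, -1.47 to 1.49 for Timp1, -0.39 to 0.95 for Timp2 and -0.76 to 0.88 for Timp3. For PGE2-EP4 they were -0.13 to 0.35 for Mmp9, -0.79 to 0.99 for Mmp10, -1.07 to 0.20 for Mmp13, -0.30 to 0.20 for Mmp14, -1.35 to 0.35 for Timp1, -0.13 to 0.54 for Timp2 and -0.093 to 0.78 for Timp3. Timp1 with the EP4 antagonist was 0.01, and -0.036 after quantile normalization, without and with the block. The cause was not tested. Counts of members 2-fold apart stayed within 1.5 times under median centring, quantile normalization and no background rule in all 7 single-array contrasts. The replicate block changed no other member's call. Transcripts at background (Mmp9, and Mmp10 outside 3 arrays of set 2) give no level.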
